A study of Mus musculus with 36 samples.

Results

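CCR2-positive macrophages were compared with CCR2-negative macrophages of injured mouse hearts, both carrying an overexpressed TFEB. The 8 libraries were taken by their labels, 4 labelled CCR2pos mac-TFEB and 4 labelled CCR2neg mac-TFEB out of 36 libraries in all, and each CCR2pos library was paired with the CCR2neg library of the same TFEB-TG number. Values of 4 libraries run in the order TFEB-TG 1 to 4.

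CCR2 is the receptor for the chemokine CCL2 and lets monocytes leave the bone marrow and enter inflamed tissue. In the mouse heart, macrophages that carry CCR2 are known to be renewed from monocytes, while macrophages without it are mostly long-lived resident cells. TFEB is a transcription factor that switches on genes of the lysosome and of autophagy through promoter sites that contain the letters CACGTG.

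All animals are described as carrying a Cre recombinase driven by Cx3cr1, fused to a receptor that tamoxifen activates, and a Td-Tomato reporter behind a stop sequence. CCR2pos mac-TFEB and CCR2neg mac-TFEB cells come from TFEB-TG animals, which also carry TFEB behind a floxed stop. The labels set them apart from Cre-neg cells with the same TFEB-TG numbers. Tamoxifen was fed for 7 days before 90 min of cardiac ischemia, and sorting followed 7 days after the injury. The other settings in which the same fractions were sorted are CX3CR1-Cre (Cre but no TFEB cassette, 5 libraries per fraction), TFEB-TG Cre-neg (cassette, labelled as lacking Cre, 4 per fraction) and TFEB-wt Cre-neg (neither, 5 per fraction), after the same tamoxifen and ischemia. The labels do not give what makes cells Cre-neg in animals described as carrying Cre. Cx3cr1 is active in macrophages of both fractions and in other myeloid cells, so the Cre is not specific to 1 fraction. Nothing in the labels states that libraries of 1 group are from separate mice, so the p-values describe only how these samples vary, which may be technical.

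Total counts of the 8 libraries ran from 16547457 to 29896334, and each detected 12666 to 12767 of the 12795 genes in the table. Macrophage identity genes were read at a summed level of 47417, 45102, 52689 and 55359.6 CPM (read counts scaled by the effective library size) in CCR2pos mac-TFEB libraries, against 41385, 49617, 50929.5 and 54721 CPM in CCR2neg mac-TFEB libraries. Adgre1, which encodes the macrophage marker F4/80, averaged 3194 ± 239 and 3237 ± 373 CPM, and Csf1r, the receptor for macrophage colony stimulating factor, averaged 2649 ± 427 and 2307 ± 525 CPM (SD, n = 4 each, CCR2pos before CCR2neg). All 15 identity genes were measured in both fractions, and 2 of them differed between the fractions (Fcgr1 and Cd14, below).

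Markers of other cells were low but not even. Endothelial markers summed to 132, 96.5, 72.3 and 42.7 CPM in CCR2pos libraries, against 527, 127, 88.2 and 72.3 CPM in CCR2neg libraries. Fibroblast markers summed to 726, 829, 568 and 602 CPM in CCR2pos libraries, against 1473, 787, 630.2 and 519 CPM in CCR2neg libraries. Mural cell markers (smooth muscle and pericytes) summed to 43.7, 19.7, 19.4 and 19.1 CPM in CCR2pos libraries, against 202, 26.9, 11.8 and 9.84 CPM in CCR2neg libraries. CCR2neg library 1 thus stood above the other 7 in all of these lists. No member of the 3 lists (12, 12 and 10 genes) passed the test over all 36 libraries. With the block and the 8 mac-TFEB libraries alone, 3 of 11 endothelial and 1 of 8 mural genes were called lower in CCR2pos libraries, 1 of each list by limma-voom with quality weights, and 1 mural gene by DESeq2. In the edgeR fit, 1 endothelial gene was called lower without CCR2pos library 2, and 1 mural gene without CCR2pos library 3 or CCR2neg library 1. The part of these markers in the results below was not tested. Cardiomyocyte markers summed to 38.3 to 48.8 CPM in CCR2pos libraries and to 34.4 to 64.9 CPM in CCR2neg libraries.

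A principal component analysis of the 8 libraries placed TFEB-TG 1 and 2 on one side of PC1 (47.0% of the variance) and TFEB-TG 3 and 4 on the other, whatever the fraction. PC2 (19.4%) separated the fractions, with scores of 6.61 to 16.4 in CCR2pos libraries and of -14.7 to -8.85 in CCR2neg libraries. Xist, the noncoding RNA that silences an X chromosome, stood at 97.8 to 125.7 CPM in the libraries of TFEB-TG 3 and 4 and at 0.0911 to 0.170 CPM in those of TFEB-TG 1 and 2. The split of PC1 runs along the level of Xist, which cannot be told apart from other differences between these labels. The pairing removes differences between labels that both fractions share. It does not remove a fraction difference that itself varies from label to label.

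**Figure D1:**
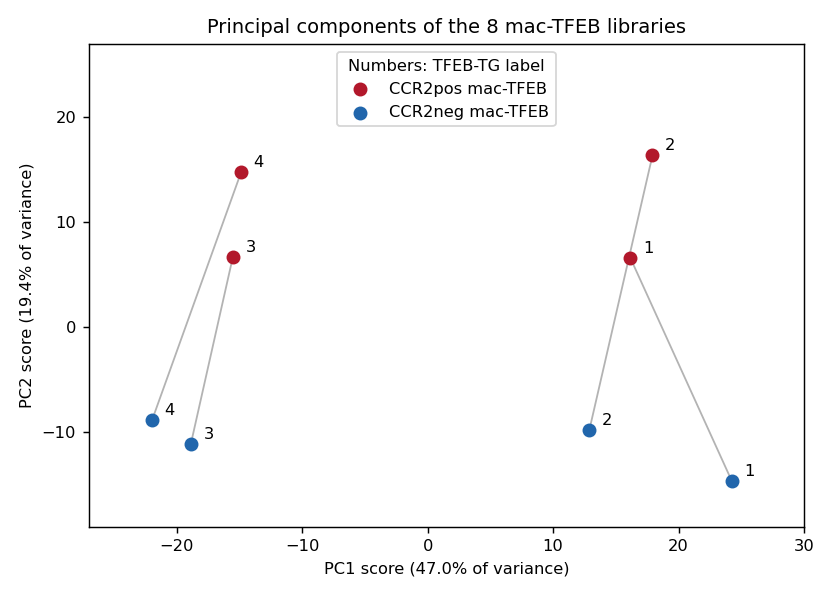
Scores of the 8 mac-TFEB libraries on PC1 (47.0% of the variance, x axis) and PC2 (19.4%, y axis), from log2 CPM; grey lines join the fractions of 1 TFEB-TG label. CCR2pos libraries (red) lie between 6.61 and 16.4 on PC2 and CCR2neg libraries (blue) between -14.7 and -8.85, while PC1 separates labels 1 and 2 from labels 3 and 4.

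Ccr2 (ENSMUSG00000049103, chromosome 9, 124101950 to 124113557, GRCm38), the gene of the sorted receptor, was read at 302, 865, 705 and 734 CPM in CCR2pos libraries, against 36.6, 47.4, 70.7 and 60.4 CPM in CCR2neg libraries. The groups did not overlap, and library 1 was the lowest of the CCR2pos group. This follows the sort and is no result. Cx3cr1, the receptor for fractalkine whose regulatory region drives the Cre, had a mean of 387 ± 26.2 CPM over CCR2pos libraries and of 357 ± 47.1 CPM over CCR2neg libraries (SD, n = 4 each), with a log2 fold change of 0.12 ± 0.11 (edgeR adjusted p = 0.730).

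Tfeb (ENSMUSG00000023990, chromosome 17, 47737030 to 47792419) was read at 225, 279.8, 60.4 and 68.2 CPM in CCR2pos libraries, against 335, 249.98, 98.1 and 67.4 CPM in CCR2neg libraries. The level followed the label more than the fraction, since labels 1 and 2 were above labels 3 and 4 in both fractions. The log2 fold change was -0.24 ± 0.24 (edgeR adjusted p = 0.765). Cassette and endogenous Tfeb transcripts cannot be told apart in these counts. In CX3CR1-Cre cells Tfeb averaged 6.54 ± 2.94 CPM in the CCR2pos and 7.91 ± 0.920 CPM in the CCR2neg fraction (SD, n = 5 each).

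Of 12795 genes, 481 (3.76%) differed between CCR2pos and CCR2neg mac-TFEB cells, 302 higher (2.36%) and 179 lower (1.4%) in CCR2pos. These shares are the ones to set beside the counts of called list members below. A gene is called here at an adjusted p under 0.05 by edgeR's quasi-likelihood F-test with the label as a block and Benjamini-Hochberg adjustment over all genes tested. An unadjusted p under 0.05 was reached by 1788 genes. The median log2 fold change was 0.60 among the genes called higher, -0.69 among those called lower and -0.01 over all genes. At least a 2-fold difference was reached by 56 of the 302 and by 56 of the 179 genes. All 4 pairs had the same direction in 299 and 174 of them, and the 4 CCR2pos libraries did not overlap the 4 CCR2neg libraries in 155 and 114, where 2.69% and 3.27% of all genes were separated in these directions. Without the block the same fit called 50 genes higher and 19 lower, all 69 of them among the 481. Of the 85 genes called and named below, 17 were also called without the block (Ccr2, Ccl8, Clec4b1, Sirpb1a, Ms4a4c, Osm, Ier3, H2-Aa, H2-Ab1, H2-Eb1, Cd74, Npy, Mmp12, Gpnmb, Cd36, Mfge8 and Adam8).

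**Figure D2:**
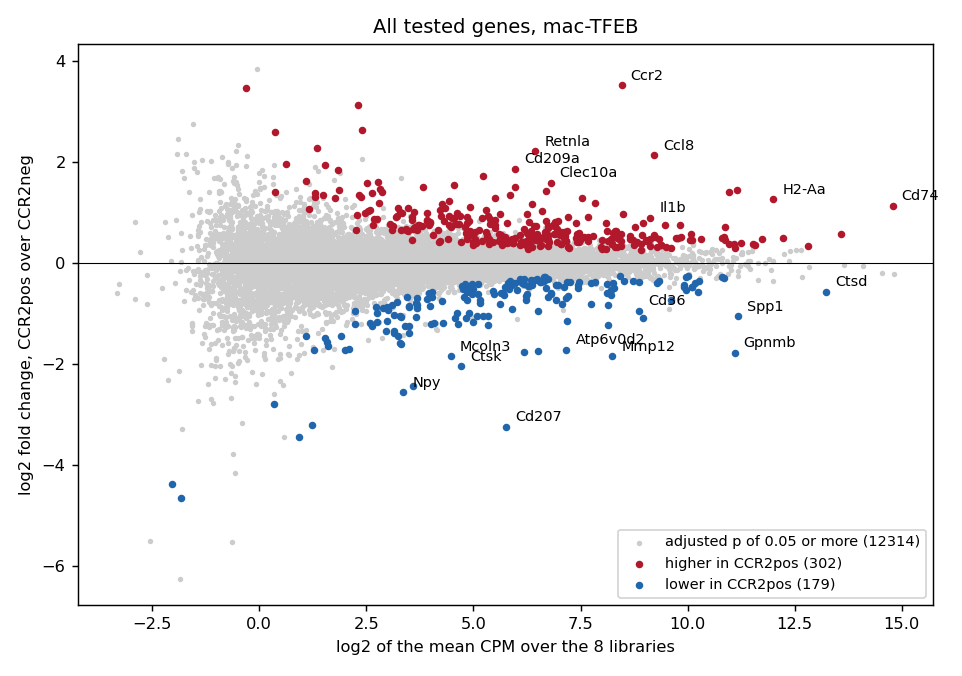
Log2 fold change of CCR2pos over CCR2neg mac-TFEB libraries (y axis) against the log2 of the mean CPM over the 8 libraries plus 0.05 (x axis), 1 point per gene. The 302 genes called higher (red) include Ccl8 and the MHC class II genes at high counts, and the 179 called lower (blue) include Cd207, Gpnmb and Mmp12; grey points were not called.

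The genes that present antigen on MHC class II rose together. Of 10 measured genes of the list, 9 were called higher in CCR2pos cells and none lower, with a list median of 1.00 on the log2 scale against -0.01 over all genes. MHC class II molecules display peptides from the endosome to helper T cells, and macrophages that arrive as monocytes are known for a high level of them. Their promoters hold a conserved group of sites, the last of which, the Y box, is bound by the factor NF-Y. The 250 bases before the start of an alpha and a beta chain gene are shown here because these genes moved together, with the Y box letters CTGATTGG in capitals (RefSeq, GRCm38.p6).
H2-Aa, minus strand of chr17:34287824-34288073: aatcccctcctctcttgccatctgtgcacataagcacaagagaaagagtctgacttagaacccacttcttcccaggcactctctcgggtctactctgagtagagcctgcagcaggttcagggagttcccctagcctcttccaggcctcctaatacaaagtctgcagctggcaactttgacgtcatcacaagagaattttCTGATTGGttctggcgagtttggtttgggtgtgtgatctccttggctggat
H2-Eb1, plus strand of chr17:34305617-34305866: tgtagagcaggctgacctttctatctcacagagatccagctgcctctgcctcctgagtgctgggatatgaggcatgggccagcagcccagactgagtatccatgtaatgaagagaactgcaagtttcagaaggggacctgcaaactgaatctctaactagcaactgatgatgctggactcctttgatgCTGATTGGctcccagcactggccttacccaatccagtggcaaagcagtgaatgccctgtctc
The Y box lies 51 bases before the start in H2-Aa and 62 bases before it in H2-Eb1. In windows of 300 bases, from 250 before to 50 after the start and on both strands, these letters are in 3 of the 7 list members with a promoter in the table (42.9%), in 15 of 240 genes called higher (6.25%) and in 636 of 9766 tested genes (6.51%). In all promoters of the table the share is 4.10%.

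H2-Aa (ENSMUSG00000036594, chromosome 17, 34282744 to 34287823), an alpha chain, was read at 5700.2, 7244, 4729 and 5337 CPM in CCR2pos libraries, against 3438, 2331, 2024 and 1961 CPM in CCR2neg libraries. The groups did not overlap, and CCR2neg library 1 was the highest of its group. Its log2 fold change was 1.26 ± 0.12 (edgeR adjusted p = 9.6e-08). H2-Ab1 (ENSMUSG00000073421, chromosome 17, 34257689 to 34269419), a beta chain, was read at 3444, 4543, 2018 and 3221 CPM in CCR2pos libraries, against 2016, 1283, 909 and 833 CPM in CCR2neg libraries. The lowest CCR2pos library, number 3, stood only just above CCR2neg library 1. The fitted log2 fold change was 1.44 ± 0.16 (edgeR adjusted p = 1.5e-06). Cd74 (ENSMUSG00000024610, chromosome 18, 60803848 to 60812652), the invariant chain that guards the binding groove, was read at 40299, 49385, 30605 and 33517 CPM in CCR2pos libraries, against 27457, 17986, 13494 and 13237 CPM in CCR2neg libraries, with a log2 fold change of 1.13 ± 0.12 (edgeR adjusted p = 4.4e-07).

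The second beta chain H2-Eb1 was at 1.40 ± 0.15, the transactivator Ciita at 1.10 ± 0.17, and the peptide-loading genes H2-DMa, H2-DMb1 and H2-DMb2 at 0.79 ± 0.10, 0.90 ± 0.11 and 0.71 ± 0.14 (log2 fold changes). H2-Ob, which restrains peptide loading, was at 0.58 ± 0.16, and its partner H2-Oa, at 0.53 ± 0.25, was not called (edgeR adjusted p = 0.347). The median of the 10 genes was 0.54, 1.29, 1.13 and 1.21 in the 4 pairs, so the difference was smallest in the pair of TFEB-TG 1. Without CCR2neg library 1, which had the highest stromal sums, 8 of the 10 were called and the median was 1.08. Without the block 7 of the 10 were called, and 1 of 10 when that fit held the 8 mac-TFEB libraries alone. The list median in the other settings was 0.47 in CX3CR1-Cre, 1.31 in TFEB-TG Cre-neg and 0.90 in TFEB-wt Cre-neg cells. Since these are bulk samples, a larger share of cells that carry a transcript and more of it per cell cannot be told apart here or below.

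**Figure D3:**
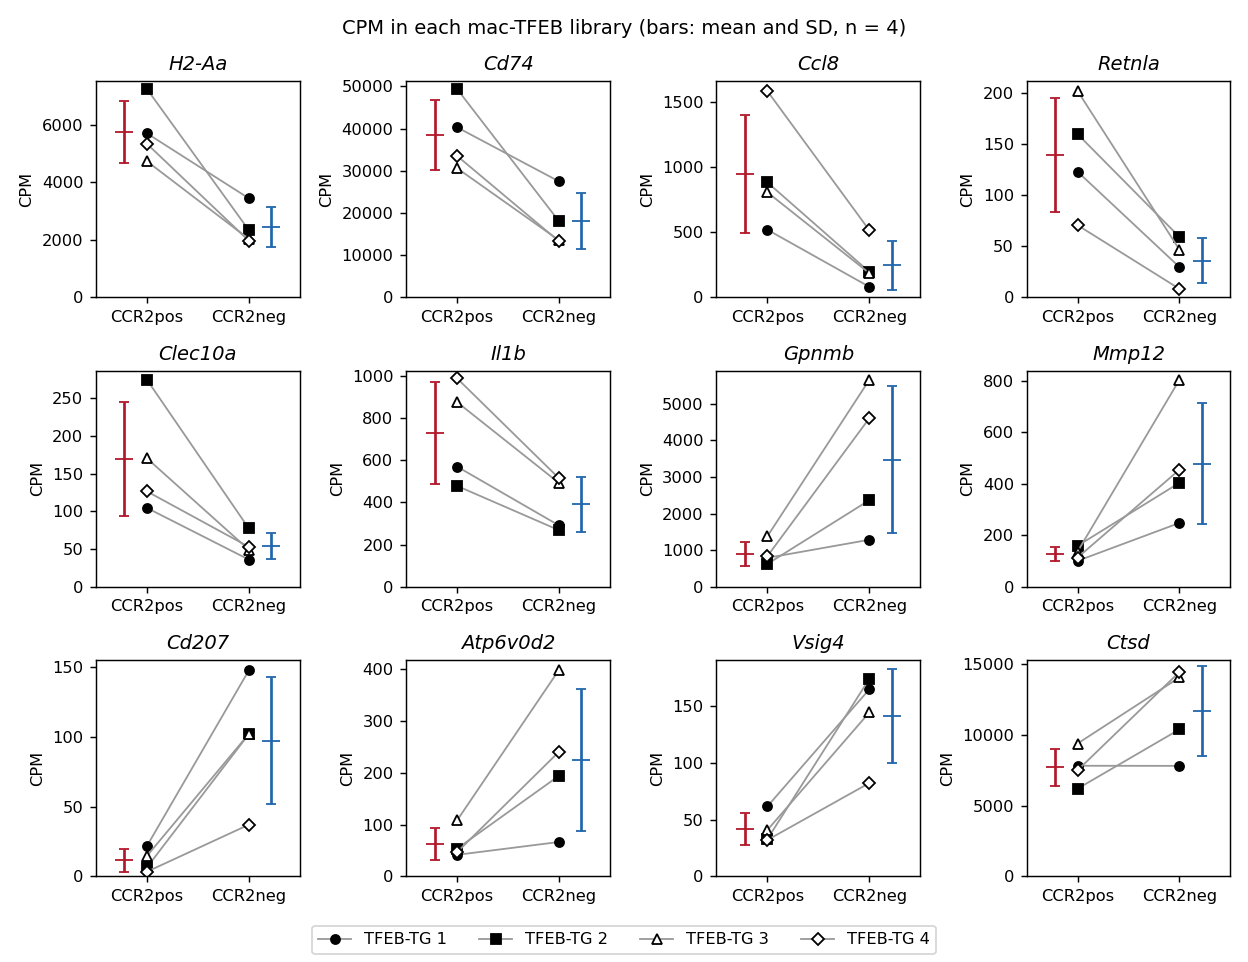
CPM of 12 genes in each of the 8 mac-TFEB libraries (y axis, starting at 0), CCR2pos left and CCR2neg right; a line joins the fractions of 1 TFEB-TG label, and bars give the mean and SD (n = 4). H2-Aa, Cd74, Ccl8, Retnla and Clec10a are higher in CCR2pos libraries of every label, and Mmp12, Cd207 and Vsig4 are lower in every label, while Ctsd is level in the pair of TFEB-TG 1.

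Some lectins and markers of alternative activation were higher in the CCR2pos fraction. Retnla (ENSMUSG00000061100, chromosome 16, 48842551 to 48844461), a secreted protein induced by interleukin 4, was read at 123, 159.6, 202 and 70.5 CPM in CCR2pos libraries, against 29.4, 58.9, 46.4 and 8.08 CPM in CCR2neg libraries. Every CCR2pos library was above every CCR2neg library, and label 4 was lowest in both fractions. Its log2 fold change was 2.21 ± 0.36 (edgeR adjusted p = 3.1e-04, and 0.576 without the block). Clec10a, a galactose lectin, was read at 105, 275, 171 and 127 CPM in CCR2pos libraries, against 36.1, 77.4, 49.2 and 53.0 CPM in CCR2neg libraries, again without overlap. For Clec10a the log2 fold change was 1.59 ± 0.20 (edgeR adjusted p = 5.6e-06). Of 14 alternative activation genes 4 were called higher, these 2 with the interleukin 4 receptor Il4ra (0.46 ± 0.11) and the lectin Mgl2 (0.60 ± 0.16), and none lower, with a median of 0.32. The list had 2 calls without CCR2pos library 4 or CCR2neg library 2, 1 by limma-voom with the label as a random effect and none without the block. Genes called lower numbered 2 with the block and the 8 mac-TFEB libraries alone, and 1 by limma-voom with quality weights. Mgl2 lost its call on 6 of the 8 single omissions, CCR2neg library 1 among them, with an edgeR adjusted p of 0.192 at most. Arg1 (-0.93) and Mrc1 (0.27), further markers of this state, were not called.

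The list of dendritic cells, a type that the gates could hold, had 5 of 22 members called higher and none lower (median 0.36). Cd209a, a lectin of monocyte-derived dendritic cells, was read at 141, 134, 77.0 and 49.5 CPM in CCR2pos libraries, against 34.5, 24.3, 29.9 and 13.6 CPM in CCR2neg libraries. The groups did not overlap, and the log2 fold change was 1.86 ± 0.39 (edgeR adjusted p = 0.00390). The migration receptor Ccr7 was at 0.82 ± 0.18, the kynurenine enzyme Kmo at 0.92 ± 0.21 and the peptidase Dpp4 at 1.41 ± 0.34, and Mgl2 is shared with the list above. The summed level of the list was 818, 1074, 706 and 606 CPM in CCR2pos libraries, against 549, 562, 487 and 465 CPM in CCR2neg libraries. Defining markers were low and not called: the growth factor receptor Flt3 averaged 5.75 ± 1.86 and 4.43 ± 2.25 CPM, the factor Zbtb46 2.07 ± 0.811 and 2.55 ± 0.317 CPM, and Xcr1 6.93 ± 2.16 and 5.69 ± 3.76 CPM (SD, n = 4 each, CCR2pos before CCR2neg). The list kept 2 calls without CCR2neg library 1 or 2 and 3 without CCR2pos library 3 or 4 or CCR2neg library 3. The part of such cells in the MHC class II result was not tested.

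Of 25 monocyte genes 6 were called higher and 1 lower, 14 had a positive log2 fold change, and the median was 0.13. The list summed to 1639, 2045, 2669 and 2992 CPM in CCR2pos libraries, against 1747, 1776, 2430 and 2155 CPM in CCR2neg libraries. These sums overlapped, and in label 1 the CCR2pos sum was the lower, so the list did not shift as a whole. Ms4a4c, a membrane protein of Ly6C-high monocytes, was read at 71.6, 78.5, 93.3 and 128 CPM in CCR2pos libraries, against 24.5, 28.2, 29.8 and 49.7 CPM in CCR2neg libraries. The groups were separated by a wide margin, with a log2 fold change of 1.51 ± 0.16 (edgeR adjusted p = 6.3e-07). Plac8 was at 1.49 ± 0.34, Ly6a at 1.05 ± 0.29, and the interferon-induced membrane genes Ifitm6 and Ifitm3 at 1.09 ± 0.19 and 0.51 ± 0.11. The list kept 4 calls without CCR2pos library 3 or CCR2neg library 2 and 3 without either library of label 4. Plac8 lost its call without CCR2pos library 4 or CCR2neg library 4, at an edgeR adjusted p of 0.162 at most. Ly6c2, the classical surface marker, had a mean of 2.19 ± 1.99 CPM over CCR2pos libraries and of 0.308 ± 0.324 CPM over CCR2neg libraries (SD, n = 4 each), a low count in both (2.60 ± 0.67 on the log2 scale). Spn (CD43), a marker of patrolling monocytes, fell (-0.50 ± 0.13). Vcan, which freshly entered monocytes also carry, was not called (-0.34). Reads of the Ly6, Ifitm and Ms4a families can be split between near-identical copies, so single members are uncertain, as are the paired receptors Sirpb1a (1.55 ± 0.17) and Clec4b1 (1.71 ± 0.16), which were also among the largest increases.

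Of 19 chemokine ligands 8 were called higher and 1 lower, 13 had a positive log2 fold change, and the median was 0.24. The number called higher was 1 without the block and 2 by limma-voom with the label as a random effect. Ccl8 (ENSMUSG00000009185, chromosome 11, 82115185 to 82116799), a ligand that draws monocytes and T cells, was read at 518, 881, 805 and 1582 CPM in CCR2pos libraries, against 79.5, 195, 184 and 514 CPM in CCR2neg libraries. The lowest CCR2pos library, number 1, was only just above CCR2neg library 4, although each pair differed in the same direction. Its log2 fold change was 2.13 ± 0.24 (edgeR adjusted p = 8.8e-07). Ccl12, close to Ccl8 in sequence, was at 0.75 ± 0.13, and Ccl7 and Ccl2, further ligands of CCR2 itself, at 0.52 ± 0.12 and 0.39 ± 0.10. The neutrophil attractant Cxcl2 was at 0.48 ± 0.10, Ccl5 at 0.77 ± 0.18, Ccl6 at 0.50 ± 0.12 and Cxcl10 at 0.44 ± 0.11. The list kept 6 increases without CCR2neg library 1, 5 without CCR2pos library 1, 3 or 4, and 4 without CCR2neg library 2 or 3. Cxcl13, the B cell attractant, fell to 51.1, 19.5, 12.7 and 63.2 CPM in CCR2pos libraries, against 92.7, 145, 82.7 and 114 CPM in CCR2neg libraries (-1.77 ± 0.40 on the log2 scale). It did not overlap, but lost its call without CCR2pos library 2 or 3 or CCR2neg library 2, with an edgeR adjusted p of 0.162 at most. Among 18 chemoattractant receptors Ccr1 (0.63 ± 0.13), Ccr7 and the formyl peptide receptor Fpr2 (0.87 ± 0.20) were called higher, and the scavenging receptor Ackr3 (-1.38 ± 0.29) was called lower, with a median of 0.01. Of 20 integrins and adhesion genes only Icam1 was called (0.33 ± 0.09), which is 5%, near the 3.76% of all genes. Its call was lost without CCR2pos library 1 or 4 or CCR2neg library 3 or 4 (edgeR adjusted p of 0.198 at most).

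Of 23 inflammatory cytokine and NF-kB genes 7 were called higher and none lower, with a median of 0.31. Il1b, the precursor of interleukin 1 beta, was read at 570.1, 478, 876 and 989 CPM in CCR2pos libraries, against 291, 268, 492 and 515 CPM in CCR2neg libraries. The groups overlapped, since CCR2neg libraries of labels 3 and 4 were above the CCR2pos library of label 2, but the 4 pairs were alike, at 0.97, 0.83, 0.83 and 0.94 on the log2 scale. The fitted log2 fold change was 0.89 ± 0.15 (edgeR adjusted p = 3.2e-04, and 0.183 without the block). Il10, an anti-inflammatory cytokine, moved the same way, at 0.91 ± 0.12, as did the prostaglandin enzyme Ptgs2 (0.83 ± 0.24), the NF-kB subunits Nfkb2 (0.88 ± 0.20) and Rel (0.49 ± 0.14) and the feedback inhibitors Nfkbia (0.45 ± 0.13) and Tnfaip3 (0.31 ± 0.08). The list kept 5 calls without CCR2pos library 1, 4 without CCR2pos library 3 or CCR2neg library 2 or 3, 3 without either library of label 4 and 2 without CCR2pos library 2, and none without the block. Tnf (0.24), Il6 (0.07) and Nlrp3 (0.19) were not called. Among 23 interferon response genes Irf7 (0.59 ± 0.11), Isg15 (0.55 ± 0.12) and Bst2 (0.41 ± 0.11) were called higher and none lower (median 0.24).

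Some genes of the dissociation and stress response moved with these lists. Of 20 such genes 7 were called higher, all 20 had a positive log2 fold change, and the median was 0.34. Their summed level was 18221, 21344, 18806 and 20024 CPM in CCR2pos libraries, against 15678, 18589, 14976 and 16519 CPM in CCR2neg libraries. Zfp36, which destabilises cytokine messages, was at 0.46 ± 0.08, the immediate early genes Btg2, Ier3, Ier2 and Junb at 0.49 ± 0.09, 0.46 ± 0.08, 0.86 ± 0.20 and 0.78 ± 0.17, the chaperone Dnajb1 at 0.62 ± 0.11 and the cytokine feedback gene Socs3 at 0.48 ± 0.13. The list kept 5 calls without CCR2pos library 4, and 4 without CCR2pos library 2 or CCR2neg library 4. Fos (0.04), Atf3 (0.11) and Jun (0.30) were not called. The part of this response in the chemokine, cytokine and NF-kB results was not tested.

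Some B cell markers also moved with the fraction. Of 9 measured genes 4 were called higher, among them Cd79a (0.63 ± 0.14), Cd79b (0.42 ± 0.12) and Ighm (0.45 ± 0.11), with a median of 0.63. The list summed to 831, 992, 893 and 981 CPM in CCR2pos libraries, against 668, 895, 539 and 631 CPM in CCR2neg libraries, and the groups overlapped. The list kept 2 calls without CCR2pos library 3 or CCR2neg library 2 or 4, and none without CCR2pos library 4 or CCR2neg library 3. B cells carry MHC class II as well, and their part in that result was not tested. Beside these sums, Cd74 had a mean of 38452 ± 8344 CPM over CCR2pos libraries and of 18044 ± 6644 CPM over CCR2neg libraries (SD, n = 4 each). No gene of the T and NK cell or mast cell lists was called. Of 8 measured neutrophil genes 1 was called, the gelatinase Mmp9 (0.99 ± 0.28), while S100a8 and S100a9 averaged 0.885 ± 0.895 and 0.250 ± 0.293 CPM in CCR2pos libraries and 1.23 ± 0.940 and 0.215 ± 0.185 CPM in CCR2neg libraries (SD, n = 4).

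**Figure D4:**
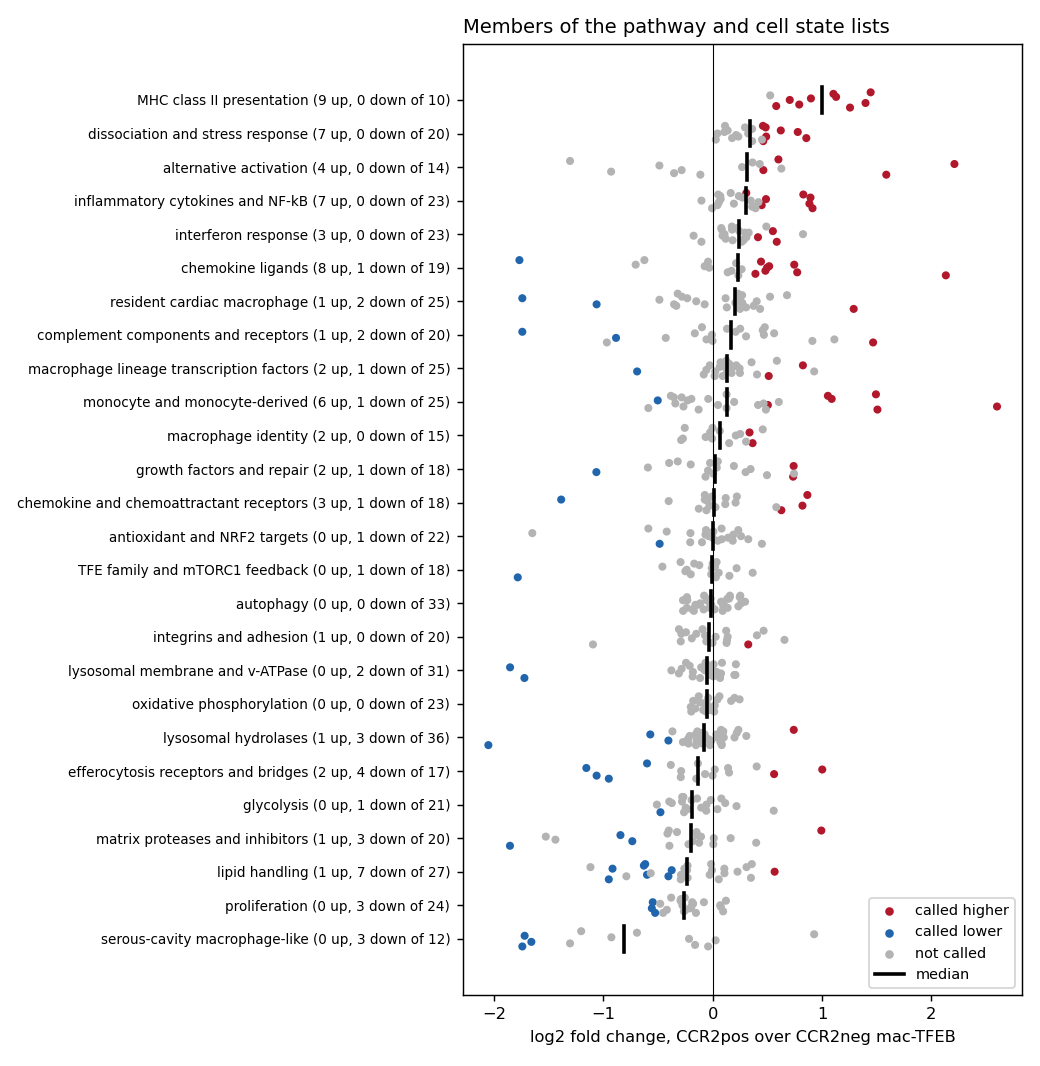
Log2 fold change of CCR2pos over CCR2neg mac-TFEB (x axis) of each measured member of the pathway, macrophage and stress lists, ordered by the list median (black bar); red and blue points were called higher and lower, grey points were not called. The MHC class II list lies wholly above 0 with a median of 1.00, and the serous-cavity list has the lowest median, -0.81.

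Resident macrophage markers did not move as 1 group. Of 25 resident cardiac macrophage genes 1 was called higher and 2 lower, with a median of 0.21. Vsig4, a complement receptor of resident macrophages, was read at 61.5, 32.7, 40.7 and 32.0 CPM in CCR2pos libraries, against 165, 174, 144 and 82.1 CPM in CCR2neg libraries. The groups did not overlap, and its log2 fold change was -1.74 ± 0.28 (edgeR adjusted p = 2.1e-04). Timd4, which binds phosphatidylserine on dying cells and marks self-renewing cardiac macrophages, was read at 34.8, 24.0, 31.2 and 17.3 CPM in CCR2pos libraries, against 51.7, 65.7, 51.6 and 48.2 CPM in CCR2neg libraries. These did not overlap either (-1.06 ± 0.31 on the log2 scale), but its edgeR adjusted p of 0.0455 reached 0.282 at most when a library was left out, and each of the 8 single omissions ended the call. The endothelin receptor Ednrb, on the same list, was higher at 1.29 ± 0.19. Lyve1 (-0.33), Cd163 (-0.49), Folr2 (0.31) and Mrc1 were not called.

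A list of markers known from macrophages of the serous cavities had the lowest median of all macrophage lists, -0.81, with 3 of 12 genes called lower and none higher. They were Vsig4, the selectin Selp (-1.72 ± 0.40) and the lubricant Prg4 (-1.66 ± 0.40), and Selp and Prg4 were read at under 10 CPM in every library. The factor Gata6, which defines peritoneal macrophages, had a mean of 0.787 ± 0.156 CPM over CCR2pos libraries and of 0.501 ± 0.311 CPM over CCR2neg libraries (SD, n = 4 each) and was not called. Prg4 was not called without CCR2pos library 1 or 3 or CCR2neg library 3, and Selp without CCR2pos library 1.

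Cd207 (ENSMUSG00000034783, chromosome 6, 83671215 to 83677857), the lectin langerin, showed the largest decrease of the named genes. It was read at 21.7, 6.42, 14.6 and 3.35 CPM in CCR2pos libraries, against 148, 102, 102 and 37.1 CPM in CCR2neg libraries, with no overlap and a log2 fold change of -3.25 ± 0.54 (edgeR adjusted p = 3.3e-04). Npy, the precursor of neuropeptide Y, was read at 1.41, 1.87, 6.05 and 2.57 CPM in CCR2pos libraries, against 8.51, 8.85, 31.6 and 20.9 CPM in CCR2neg libraries (-2.57 ± 0.30 on the log2 scale). Labels 3 and 4 were above labels 1 and 2 in both fractions, yet the groups did not overlap. The serotonin receptor Htr2b (-2.43 ± 0.53), the semaphorin receptor Plxna2 (-1.61 ± 0.41) and the filament gene Nes (-1.59 ± 0.38) were also among the 12 largest decreases. Exons of Htr2b overlap Psmd1 on the other strand, and reads of overlapping genes cannot be told apart in these libraries, which do not mark the strand. The same holds for Adam8, Aldoa, Bhlhe41, Cd74, Cfb, Ch25h, Ciita, Csf1r, Ctsb, Cx3cr1, Cxcl10, Dpp4, Folr2, Fpr2, Gata6, H2-DMa, H2-Oa, Hexa, Icam1, Il1b, Il4ra, Irf7, Jun, Junb, Kif20a, Lamp1, Ms4a4c, Nfkb2, Prg4, Selp, Spp1, Sqstm1, Top2a and Zfp36, whose exons overlap another gene model.

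Some receptors and lipid genes of cell clearance were lower in the CCR2pos fraction. Of 17 efferocytosis genes 4 were called lower and 2 higher (median -0.13), and of 27 lipid handling genes 7 were called lower and 1 higher (median -0.23). Cd36 (ENSMUSG00000002944, chromosome 5, 17781690 to 17888801), a receptor for oxidised lipids and dying cells, was read at 368, 317, 336 and 263 CPM in CCR2pos libraries, against 668, 629, 626 and 538 CPM in CCR2neg libraries. All 4 pairs differed by nearly the same amount, at -0.86, -0.99, -0.90 and -1.03, and the log2 fold change was -0.95 ± 0.14 (edgeR adjusted p = 1.2e-04). Mfge8, a bridge between dying cells and integrins, was read at 115, 117, 76.8 and 56.1 CPM in CCR2pos libraries, against 219, 174, 246 and 159 CPM in CCR2neg libraries, again without overlap (-1.15 ± 0.19 on the log2 scale, edgeR adjusted p = 2.4e-04). Lrp1, a receptor for lipoproteins, was at -0.60 ± 0.14, lipoprotein lipase Lpl at -0.63 ± 0.17, the fatty acid carrier Fabp5 at -0.91 ± 0.17, the cholesterol hydroxylase Ch25h at -0.62 ± 0.15 and the cholesterol ester hydrolase Nceh1 at -0.37 ± 0.09. Of the efferocytosis genes 1 was called higher without CCR2pos library 2 or 4 or CCR2neg library 2, 3 or 4. The lipid list had 5 decreases without CCR2neg library 3, 4 without CCR2pos library 3, and 3 without CCR2pos library 4 or CCR2neg library 2 or 4. The receptors Axl (0.56 ± 0.11) and Scarf1 (1.00 ± 0.27) and the lipoprotein Apoe (0.57 ± 0.16) were higher. Mertk (-0.29), Trem2 (-0.29) and Abca1 (0.35) were not called.

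Of the lysosome lists, which hold known targets of TFEB, 11.1% of hydrolases and 6.45% of membrane and v-ATPase genes were called, mostly lower. The TFE family and mTORC1 list had 5.56% called and autophagy 0%, against 3.76% of all genes. Of 36 lysosomal hydrolases 3 were called lower and 1 higher (median -0.08), of 31 lysosomal membrane and v-ATPase genes 2 lower and none higher (median -0.05), of 18 genes of the TFE family and mTORC1 feedback 1 lower (median -0.01), and of 33 autophagy genes none in either direction (median -0.01). Autophagy log2 fold changes ran from -0.27 to 0.30, with Atg12 nearest to a call (edgeR adjusted p = 0.0776). The members of these lists that fell include the aspartic protease gene Ctsd and Gpnmb, a membrane glycoprotein gene known to follow TFEB family factors. For this reason 30 bases around each CACGTG before the start of Ctsd and the 250 bases before the start of Gpnmb are shown, with CACGTG in capitals (RefSeq, GRCm38.p6).
Ctsd far site, minus strand of chr7:142388048-142388077: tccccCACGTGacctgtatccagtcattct
Ctsd near site, minus strand of chr7:142387908-142387937: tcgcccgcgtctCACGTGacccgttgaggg
Gpnmb, plus strand of chr6:49036268-49036517: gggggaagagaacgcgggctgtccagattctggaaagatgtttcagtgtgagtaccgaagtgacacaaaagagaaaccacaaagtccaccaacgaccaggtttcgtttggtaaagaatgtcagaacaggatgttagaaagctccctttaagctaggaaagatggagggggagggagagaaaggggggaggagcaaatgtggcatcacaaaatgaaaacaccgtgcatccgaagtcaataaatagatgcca
In GENCODE vM21 Ctsd begins at 142388038 on the minus strand, so the near site lies inside it and only the far site before it. The letters CACGTG read the same on both strands. In Ctsd they start 245 and 98 bases before the RefSeq start, and they do not occur in the Gpnmb window. They are in 11 of 27 lysosomal hydrolase promoters (40.7%), in 14 of 142 genes called lower (9.86%), in 37 of 240 called higher (15.4%) and in 1155 of 9766 tested genes (11.8%). In all promoters of the table the share is 7.15%.

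Gpnmb (ENSMUSG00000029816, chromosome 6, 49036546 to 49070929) was read at 789, 621, 1375 and 832 CPM in CCR2pos libraries, against 1283, 2363, 5645 and 4598 CPM in CCR2neg libraries. CCR2neg labels 3 and 4 were far above all others, and CCR2pos label 3 was just above CCR2neg label 1, so the groups overlapped. Gpnmb had a log2 fold change of -1.78 ± 0.26 (edgeR adjusted p = 6.7e-05). Ctsd (ENSMUSG00000007891, chromosome 7, 142375911 to 142388038) was read at 7812, 6193, 9377 and 7488 CPM in CCR2pos libraries, against 7804, 10381, 14046 and 14436 CPM in CCR2neg libraries. Its fractions were level in label 1 and differed in the other labels, with a log2 fold change of -0.57 ± 0.12 (edgeR adjusted p = 0.00517). Its exons overlap the gene model Gm49369, and the call was lost without CCR2neg library 4, with an edgeR adjusted p of 0.132 at most over all omissions.

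Ctsk, a collagen-degrading cathepsin, was read at 7.70, 5.92, 15.1 and 11.6 CPM in CCR2pos libraries, against 44.3, 30.2, 60.7 and 34.1 CPM in CCR2neg libraries, with no overlap and a log2 fold change of -2.05 ± 0.33 (edgeR adjusted p = 2.6e-04). Atp6v0d2, a proton pump subunit of osteoclasts and activated macrophages, was read at 41.7, 53.7, 108 and 46.9 CPM in CCR2pos libraries, against 66.6, 195, 399 and 241 CPM in CCR2neg libraries. As for Gpnmb, label 1 differed least, and the log2 fold change was -1.72 ± 0.20 (edgeR adjusted p = 1.5e-06). The endolysosomal channel Mcoln3 was at -1.85 ± 0.36 and the acid lipase Lipa at -0.40 ± 0.10. The call of Lipa was lost without CCR2pos library 2 or 4 or CCR2neg library 2, 3 or 4 (edgeR adjusted p of 0.238 at most). Ctse was higher (0.74 ± 0.20) and lost without 7 of the 8 libraries, CCR2neg library 1 being the exception. Other known targets of TFEB were not called, among them Lamp1 (0.07), Mcoln1 (0.21), Sqstm1 (0.10), Ctsb (-0.22) and Hexa (-0.07).

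Of 20 matrix proteases and inhibitors 3 were called lower and 1 higher (median -0.20). Mmp12 (ENSMUSG00000049723, chromosome 9, 7344381 to 7369499), macrophage elastase, was read at 100.5, 159, 136 and 113 CPM in CCR2pos libraries, against 248, 404, 803 and 454 CPM in CCR2neg libraries. The groups did not overlap, and the log2 fold change was -1.85 ± 0.32 (edgeR adjusted p = 5.3e-04). Its exons overlap those of Mmp1b on the other strand. The membrane protease Adam8 was at -0.84 ± 0.16 and the collagenase Mmp13 at -0.73 ± 0.15, and Mmp9 was higher. Mmp9 was called without CCR2pos library 3 or CCR2neg library 3 or 4 and lost without any of the other 5 libraries (edgeR adjusted p of 0.200 at most).

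Of 18 growth factors and repair genes Osm (0.74 ± 0.11) and Hbegf (0.74 ± 0.12) were called higher and Spp1 lower (median 0.02). Osm, oncostatin M, was read at 161, 127, 139 and 176 CPM in CCR2pos libraries, against 94.3, 83.7, 92.1 and 89.9 CPM in CCR2neg libraries, and its CCR2neg libraries were close together. Spp1, osteopontin, was read at 676, 689, 2656 and 889.7 CPM in CCR2pos libraries, against 884, 1385, 9621 and 1608 CPM in CCR2neg libraries. Label 3 stood far above the others in both fractions, and the groups overlapped. Spp1 had a log2 fold change of -1.06 ± 0.20 (edgeR adjusted p = 0.00113, and 0.0430 at most when a library or label was left out). Of 20 complement genes Cfb was called higher (1.47 ± 0.23) and Vsig4 and the inhibitor Cd59a (-0.88 ± 0.23) lower, while C1qa (0.46) and C3 (0.47) were not called. Cd59a lost its call on each single omission but that of CCR2pos library 2, with an edgeR adjusted p of 0.157 at most. The number of complement genes called higher was 5 with the block and the 8 mac-TFEB libraries alone, 5 by limma-voom with quality weights, 2 by DESeq2 and 2 without CCR2pos library 1 or 3.

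Of the proliferation list 12.5% was called, against 3.76% of all genes. Glycolysis (4.76%) and antioxidant genes (4.55%) were near that share, and oxidative phosphorylation was at 0%. Of 24 proliferation genes Cenpe (-0.53 ± 0.15), Kif20a (-0.55 ± 0.15) and Ccnb2 (-0.56 ± 0.16) were called lower and none higher, with a median of -0.26. Kif20a and Ccnb2 lost their calls on every omission of a library or label (edgeR adjusted p of 0.439 and 0.276 at most). Cenpe kept its call only without CCR2neg library 1 (0.252 at most), so the share of this list rests on calls that single libraries decide. Mki67 (-0.28) and Top2a (-0.20) were not called. Of 21 glycolysis genes Aldoa was lower (-0.48 ± 0.10), of 22 antioxidant genes Prdx1 was lower (-0.48 ± 0.10), and of 23 oxidative phosphorylation genes none was called, with Sdhc nearest (edgeR adjusted p = 0.225). Among 25 macrophage transcription factors the nuclear receptors Nr4a1 (0.51 ± 0.09) and Nr4a2 (0.83 ± 0.16) were called higher and Bhlhe41 (-0.69 ± 0.18) lower, while Spi1 (0.15) and Irf8 (0.25) were not called. Bhlhe41 lost its call without CCR2pos library 2 or 4 or CCR2neg library 2, 3 or 4 (edgeR adjusted p of 0.183 at most). In the macrophage identity list Fcgr1 (0.37 ± 0.08) and Cd14 (0.34 ± 0.08) were called higher.

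Most genes called in mac-TFEB cells had the same sign in the other settings, which share no library with them. TFEB-TG Cre-neg libraries do share the TFEB-TG numbers, and with them the blocks of the fit, so this setting may not be independent. The share of same signs over all genes was not measured. The fractions differed in 552 genes in CX3CR1-Cre cells (4.31% of those tested, 2.7% higher and 1.62% lower), in 1228 in TFEB-TG Cre-neg cells (9.6%, 6.26% and 3.34%) and in 808 in TFEB-wt Cre-neg cells (6.31%, 3.67% and 2.65%). Of the 302 genes higher in CCR2pos mac-TFEB cells, 159 were also called higher in CX3CR1-Cre cells (52.6% of the 302 and 46.1% of the 345 called there), 221 in TFEB-TG Cre-neg cells (73.2% and 27.6% of 801) and 184 in TFEB-wt Cre-neg cells (60.9% and 39.2% of 469). Of the 179 lower genes, 60 were called lower in CX3CR1-Cre cells (33.5% and 29.0% of 207), 107 in TFEB-TG Cre-neg cells (59.8% and 25.1% of 427) and 96 in TFEB-wt Cre-neg cells (53.6% and 28.3% of 339). A positive sign was seen for 285, 296 and 288 of the 302, and a negative sign for 150, 176 and 176 of the 179, in the same order of settings. Called in the opposite direction were 2 of the 179 in CX3CR1-Cre cells and 1 of the 302 in TFEB-wt Cre-neg cells. In all 3 other settings 108 of the higher and 37 of the lower genes were called in the same direction, and 35 and 42 were called in none. A call in mac-TFEB cells that is absent elsewhere does not show that the difference is particular to TFEB overexpression, for which the difference of the differences is the test.

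That test called no gene of 12795 against CX3CR1-Cre (smallest edgeR adjusted p = 0.0562, 1097 genes at an unadjusted p under 0.05) and none against TFEB-TG Cre-neg (smallest 0.0734, 693 genes). DESeq2 called 42 and 14 and limma-voom with quality weights 1 and 12 in the same comparisons. Against TFEB-wt Cre-neg it called 4 genes (0.0313% of those tested, 0.0234% with a larger and 0.00782% with a smaller log2 difference). For MHC class II the fraction difference was larger in mac-TFEB than in CX3CR1-Cre cells by 0.96 (95% interval 0.51 to 1.40) on the log2 scale for H2-Ab1, by 0.70 (95% interval 0.37 to 1.02) for H2-Aa and by 0.65 (95% interval 0.33 to 0.97) for Cd74, with edgeR adjusted p from 0.135 to 0.163. H2-Aa in CX3CR1-Cre cells averaged 8197 ± 869.6 CPM for the CCR2pos fraction and 5594 ± 627 CPM for the CCR2neg fraction (SD, n = 5 each), beside 5753 ± 1072 and 2438 ± 686 CPM in the mac-TFEB fractions (SD, n = 4 each). Both mac-TFEB means thus lie below those of the CX3CR1-Cre cells. Ctsd was at -0.57 ± 0.12 in mac-TFEB and 0.17 ± 0.11 in CX3CR1-Cre cells, a difference of -0.74 (95% interval -1.08 to -0.41), and Fabp5 at -0.91 ± 0.17 and 0.08 ± 0.15, a difference of -0.99 (95% interval -1.45 to -0.53) (edgeR adjusted p = 0.135 and 0.135). Against the TFEB-TG Cre-neg cells, which carry the cassette, the same differences were 0.02 (95% interval -0.33 to 0.38) for Ctsd, 0.11 (95% interval -0.38 to 0.59) for Fabp5 and -0.42 (95% interval -0.76 to -0.08) for H2-Aa.

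The comparison with CX3CR1-Cre cells depended on TFEB-TG label 1. Without the libraries of that label 28 genes were called, 7 with a larger and 21 with a smaller log2 difference in mac-TFEB cells. This was the omission with the most calls, and its genes are listed because of that, so their adjusted p are no separate test. The 7 were H2-Aa, H2-Ab1, H2-Eb1, Cd74, Junb, Ier2 and Plbd1, and the 21 included Ctsd (-0.95), Ctsb (-0.62), Lipa (-0.69), Gpnmb (-1.40), Fabp5 (-1.27), the lipid droplet coat Plin2 (-0.74), the endolysosomal genes Pld3 (-0.76) and Mcoln2 (-1.04) and the endosomal glycoprotein Cd68 (-0.50). Their edgeR adjusted p ran from 0.00325 to 0.0429. Without CCR2pos library 1 alone 14 genes were called, and without CCR2neg library 1 alone 7, among them H2-Aa, H2-Eb1, Cd74, Ctsd and Fabp5. Label 1 had the lowest Ccr2 level of the CCR2pos libraries and the highest endothelial, fibroblast and mural sums of the CCR2neg libraries, and the part of either in this dependence was not tested.

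The 4 genes called against TFEB-wt Cre-neg were Retnla, Mmp9, Add3 and Cd4, each at an edgeR adjusted p of 0.0450. Retnla was at 2.21 ± 0.36 in mac-TFEB and -0.25 ± 0.30 in TFEB-wt Cre-neg cells, a difference of 2.46. In TFEB-wt Cre-neg cells its mean was 522 ± 585 CPM for the CCR2pos fraction and 735 ± 993 CPM for the CCR2neg fraction (SD, n = 5 each), so its spread there exceeded its mean. Mmp9 was at 0.99 ± 0.28 in mac-TFEB and -1.01 ± 0.23 in TFEB-wt Cre-neg cells, a difference of 2.001 (95% interval 1.27 to 2.73). In mac-TFEB cells neither Add3 nor Cd4 was called. The cytoskeletal adducin Add3 was at 0.17 ± 0.10 and -0.53 ± 0.09, a difference of 0.71 (95% interval 0.43 to 0.98), and the T cell coreceptor Cd4, which macrophages also transcribe, at -0.16 ± 0.16 and 1.04 ± 0.15, a difference of -1.21 (95% interval -1.66 to -0.75). In CX3CR1-Cre cells these 4 were at 1.68 ± 0.31, -0.61 ± 0.23, -0.07 ± 0.09 and 0.43 ± 0.15, and in TFEB-TG Cre-neg cells at 0.28 ± 0.34, 0.09 ± 0.26, -0.28 ± 0.10 and 0.33 ± 0.17. None of the 4 calls was kept in every omission of a library, and the test called 0 genes without CCR2pos library 3 or 4 or CCR2neg library 1 or 4, 1 without CCR2neg library 3, 2 without CCR2neg library 2 and 7 without CCR2pos library 2.

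**Figure D5:**
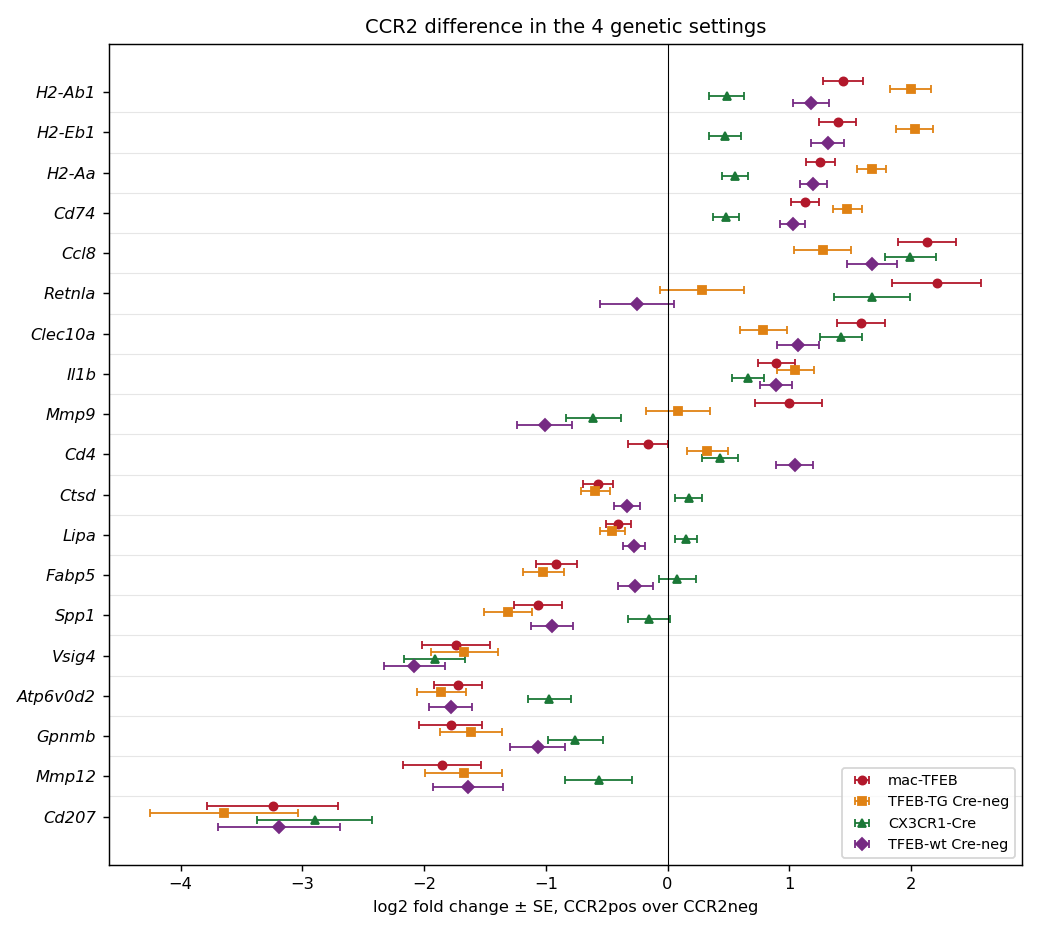
Log2 fold change of CCR2pos over CCR2neg cells with its SE (x axis) for 19 genes (rows) in mac-TFEB (red), TFEB-TG Cre-neg (orange), CX3CR1-Cre (green) and TFEB-wt Cre-neg cells (purple). The 4 MHC class II genes are lowest in CX3CR1-Cre cells (0.47 to 0.56) and at 1.13 to 1.44 in mac-TFEB cells, a difference that did not pass the test over all genes.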

How the data were processed

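RNA of sorted cardiac macrophages was sequenced in 36 libraries, and the authors deposited 1 table of raw read counts per gene on GRCm38. Per the submitters' processing notes, TopHat2 2.0.10 and HTSeq were used with TopHat, Bowtie2, edgeR and DESeq, no role being given for any of them. The table holds 12795 genes after a filter whose rule the labels do not state. Libraries do not mark the strand. All genes passed the filter on low counts used here (filterByExpr in edgeR, minimum count 10), so 12795 were tested.

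The fit used edgeR 4.0.16 in R 4.3.3 with TMM scaling, all 36 libraries and the quasi-likelihood F-test, with the 9 TFEB-TG and TFEB-wt numbers as a block (21 residual degrees of freedom) and Benjamini-Hochberg adjustment over all genes, at 0.05. The SE of a log2 fold change is its size divided by the root of F, and intervals are at 95%. The label entered as a block because same-label libraries deviated together: the 4 correlations of their deviations from the group means ran from 0.544 to 0.653 over 7319 genes, and from -0.603 to 0.460 between different labels. The pairing comes from the shared TFEB-TG number, which is not stated to be 1 animal. The common dispersion was 0.0413 with the block and 0.0943 without it. None of the 12 within-group pairs of mac-TFEB libraries agreed within sampling noise.

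Named genes are Ccr2, Cx3cr1 and Tfeb, the 12 largest increases and 12 largest decreases among called genes at 10 CPM or more with 1 direction in all 4 pairs, up to 4 called members per list by p (1 where none was called), and up to 6 genes per difference of differences. This gave 98 genes, 85 of them called. Other list members were named after their values were seen. The comparison, members and lists were chosen with earlier results of these data known. Lists hold 647 genes, 622 measured, and single values of some members are not reported here.

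On counts simulated for the mac-TFEB comparison (12792 genes), changes were set only in genes at a mean of 10 CPM or more over the 36 libraries. Of changes of 0.6, 1 and 1.5 on the log2 scale, 60.6%, 97.0% and 100% were recovered, and 5.49% of calls were false. Recovery at lower counts was not measured. Alternatives were fits without the block, with the 8 libraries alone, with other scaling, filters and tests (DESeq2 1.42.0, limma 3.58.1), and without each library or label. Promoters are RefSeq sequences of GRCm38.p6, and gene positions follow GENCODE vM21, which matched 12783 genes.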

Additional observations from a re-analysis of the deposited data

Results flagged for a closer look

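Of 196 groups of 4 libraries tested over the 98 named genes, 12 held a library far from the other 3 of its group by Dixon's ratio, where chance gives about 1 in 20 groups. In CCR2pos libraries these were Htr2b in library 1 (12.7 CPM), Cd14 in library 2 (6792 CPM), Aldoa in library 2 (788 CPM), Nfkb2 in library 3 (18.1 CPM), Spp1 in library 3 (2656 CPM) and Fpr2 in library 4 (14.5 CPM). In CCR2neg libraries they were Ccr1 in library 1 (121 CPM), the fatty acid carrier Fabp4 in library 1 (194 CPM), Zfp36 in library 2 (3459 CPM), Irf7 in library 3 (188 CPM), Spp1 in library 3 (9621 CPM) and Bhlhe41 in library 3 (216 CPM). Spp1 stood apart in both fractions of TFEB-TG 3. Fabp4 is also transcribed by capillary endothelium, and CCR2neg library 1 had the highest endothelial sum, whose part in this value was not tested.

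For 4 genes the CCR2pos minus CCR2neg difference was not the same in mac-TFEB and TFEB-wt Cre-neg cells by the edgeR test of the difference itself (Benjamini-Hochberg adjusted p = 0.0450 for each). The difference of the log2 fold changes was 2.46 for Retnla, 2.001 for Mmp9, 0.71 for Add3 and -1.21 for Cd4.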

How the results depend on the processing

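All 481 called genes kept their sign in every alternative that tested them, and the counts moved. Against 302 higher and 179 lower genes, the fit without the replicate block gave 50 and 19, and 19 and 13 with the 8 mac-TFEB libraries alone. Limma-voom with quality weights gave 303 lower genes. TFEB-TG labels 1 and 2 alone gave 55 and 22 and labels 3 and 4 alone 86 and 50, a split chosen after seeing the data. Leaving out 1 library or label gave 133 to 257 higher and 66 to 157 lower genes, with the fewest without TFEB-TG 4. Single libraries that moved a count by over 1.5 times were CCR2pos 4 (187 higher, 108 lower), CCR2neg 2 (187, 104) and CCR2neg 4 (189, 89), and for lower genes CCR2pos 2 (107) and CCR2neg 3 (108). The difference from TFEB-TG Cre-neg, with 0 genes, had 14 by DESeq2, 12 by limma-voom with quality weights and 0 to 5 over the omissions. The difference from CX3CR1-Cre, also 0, had 42 by DESeq2, 1 by limma-voom with quality weights, 2 by the robust fit, 6 with labels 3 and 4 alone and 0 to 28 over the omissions. The difference from TFEB-wt Cre-neg, with 4 genes, had 10 by DESeq2, 9 by limma-voom with quality weights, 0 without the replicate block, 0 with the label as a random effect, 0 with either pair of labels alone and 0 to 7 over the omissions. Fits of the 8 libraries alone give no such difference. Cx3cr1, not called, changed sign with labels 1 and 2 alone, to -0.019, and Cd4, not called, to 0.13 (its omissions ran from -0.26 to 0.047, the last without TFEB-TG 4). The causes were not tested. Of the 85 named calls, 51 were kept in all 8 single-library omissions and 42 also without each label. Calls of further named genes that were lost when 1 of the libraries in parentheses was left out were Bst2 (CCR2pos 2, 4 and CCR2neg 3, 4), Ccr7 (CCR2neg 2), Cd14 (CCR2pos 1 and CCR2neg 3), Cd79a (CCR2pos 4 and CCR2neg 3), Cd79b (CCR2pos 1, 3, 4 and CCR2neg 2, 3, 4), Ch25h (CCR2pos 3, 4 and CCR2neg 2, 4), Dpp4 (CCR2pos 3, 4 and CCR2neg 1, 2), Fpr2 (CCR2pos 2 and CCR2neg 4), Ighm (CCR2pos 4 and CCR2neg 2, 3), Il4ra (CCR2pos 4 and CCR2neg 2, 4), Kmo (CCR2neg 1, 3), Lrp1 (CCR2pos 1), Nes (CCR2pos 1, 3 and CCR2neg 2, 4), Nfkb2 (CCR2pos 2, 4 and CCR2neg 4), Plxna2 (CCR2pos 1, 2, 3, 4 and CCR2neg 2, 4) and Tnfaip3 (CCR2pos 1, 2, 3 and CCR2neg 2, 3, 4). Genes of few counts, such as Prg4 and Selp, have the least precision.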
